A study of Mus musculus with 16 samples.

Results

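The genes described here are 34 genes of the extracellular matrix, of wound repair and of fibrinolysis, the breakdown of fibrin clots. They were taken from a list of gene names, which was drawn up with earlier results of these data known. A gene was read from the probe set whose only symbol was that gene, and from the one with the highest mean where there were several. All 34 were found among the 19938 genes tested, 33 of them with 1 probe set and S100a11 with 2. By role they are 7 membrane-associated wound proteins, 6 proteins of the provisional matrix, 3 genes of plasminogen activation, 7 matrix-degrading proteases, 6 genes of collagens and collagen cross-linking, 2 genes of growth factor and matrix receptor function and 3 small leucine-rich proteoglycans.

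After tissue injury a provisional matrix of fibrin, fibronectin and adhesive glycoproteins is laid down, and proteases then open and remodel it. Plasmin, made from plasminogen by the tissue-type and urokinase-type activators, dissolves fibrin and switches on matrix metalloproteases, and annexin A2 and the urokinase receptor gather this activity at cell surfaces. In most organs fibrillar collagen follows later and forms a scar. In the brain, collagens are found mainly in the meninges and in the basement membrane of vessels.

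The data were 16 Affymetrix Mouse Gene 1.0 ST arrays of whole-brain RNA, 4 per group. The groups were naive C57BL/6 mice, C57BL/6 mice 24 h after pMCAO (a stroke model in which the middle cerebral artery is closed for good), naive TNF knockout mice and TNF knockout mice 24 h after pMCAO. All mice were male and 8 weeks old. No group had sham surgery, so a stroke change contains the operation as well as the occlusion, and the whole brain contains tissue outside the injured territory. Arrays are numbered within each group, with no statement that each came from its own animal, so p-values measure the spread between these samples, which may be technical. The deposited log2 values ranged from 1.42 to 14.53 with array medians of 6.01 to 6.05, and arrays within a group correlated at 0.991 to 0.996. The mean log2 value of 10 neuronal markers was 10.6 to 10.8 in the 16 arrays. The log2 value of Tnf itself was higher, not lower, under the knockout label. The limma difference was 1.11 ± 0.14 (SE, adjusted p = 0.00056) between the naive groups and 1.24 ± 0.14 between the stroke groups (adjusted p = 0.0001). That is the opposite of what the label says unless the probe set lies outside the deleted part, which the sources used here do not give, and these groups are therefore called arrays labelled TNF knockout.

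At 24 h, in the mean of the stroke changes of both genotypes, 5 of 7 membrane-associated wound proteins, 2 of 6 provisional matrix genes, the urokinase receptor and 3 of 7 matrix proteases were higher, and no collagen gene passed the test. Genes were tested with limma and p-values adjusted over all 19938 genes, with a threshold of 0.05. In C57BL/6 mice 5 of the 34 genes rose after stroke and 0 fell, where 1.68% of all genes were called, 1.34% higher and 0.336% lower. The 5 were Anxa1, Anxa2, Anxa3, Tagln2 and Adamts1. In the arrays labelled TNF knockout 4 rose and 0 fell, where 0.642% of all genes were called, 0.537% higher and 0.105% lower. These were Tgfbi, Plaur, Mmp3 and Adamts1. In the mean of both stroke changes 11 rose and 0 fell, where 2.8% of all genes were called, 1.78% higher and 1.03% lower. The 11 were Adamts1, Anxa1, Anxa2, Anxa3, Mmp3, Mmp12, Plaur, S100a11, Tagln2, Tgfbi and Thbs1. The median change of the 34 genes was 0.21 in C57BL/6 mice, 0.17 in the arrays labelled TNF knockout and 0.17 in the mean of both, and the medians over all genes were -0.005, 0 and -0.0025. In bulk tissue a change in the number of cells of a type and a change in RNA per cell cannot be told apart.

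**Figure D1:**
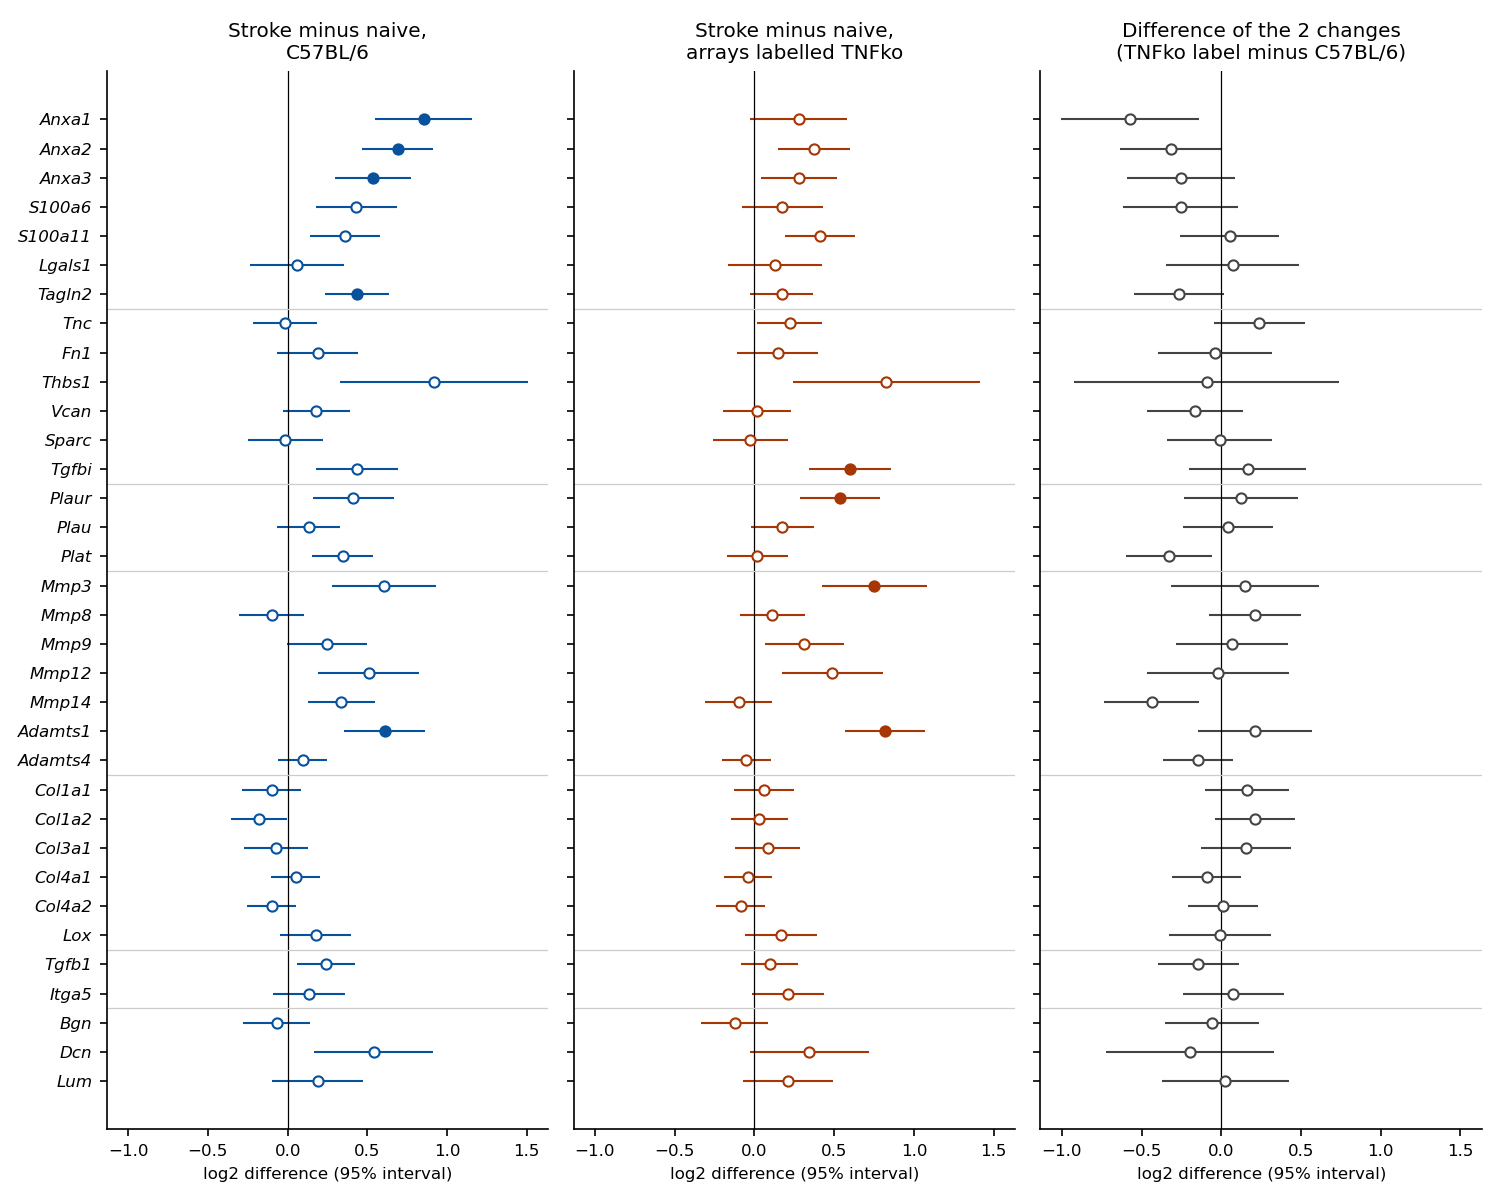
Stroke changes of the 34 genes on the log2 scale with 95% intervals, in C57BL/6 mice, in the arrays labelled TNF knockout, and the difference between these changes, with filled points for genes past the threshold and grey lines between the roles. Filled points stand at 5 genes in the C57BL/6 panel, at 4 in the panel of the knockout label and at 0 in the panel of differences, and the collagen rows lie around 0.

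The promoters of genes that rose are shown because they rose in the same comparison. RefSeq (GRCm38.p6) promoter windows of 300 bases, 250 before and 50 after the first listed start, were matched for 22 of the 34 genes, of which 9 were among the 11 that rose in the mean of both stroke changes. The letters TGANTCA, which AP-1 transcription factors bind, were searched on both strands and were present in 4 of these 9 windows (Anxa2, Mmp3, Plaur and S100a11), in 0 of the 13 other windows and in 7.93% of 27025 windows of all genes. The letters TTCNNNGAA, a STAT motif, were in 0 of the 22 and in 8.47% of all windows. TATAAA was in 7 of the 22, with 4 of them among the 9 of genes that rose, and in 14.2% of all. A loose NF-kB motif, GGG and CC with any 5 bases between them, was in 17 of the 22 and in 50.4% of all. Of those 17 windows, 8 were among the 9. A match describes letters and not a bound site, and the counts are given with no test. The 150 bases before the start follow, 5′ to 3′ on the strand of the gene, with TGANTCA in capitals, for the 4 genes that hold it and for 2 that rose without it in their window, Adamts1 and Tgfbi. The windows are chr9:69453533-69453682 (plus strand) for Anxa2, chr3:93520346-93520495 (plus) for S100a11, chr7:24462333-24462482 (plus) for Plaur, chr9:7445672-7445821 (plus) for Mmp3, chr16:85803114-85803263 (minus) for Adamts1 and chr13:56609436-56609585 (plus) for Tgfbi.
Anxa2: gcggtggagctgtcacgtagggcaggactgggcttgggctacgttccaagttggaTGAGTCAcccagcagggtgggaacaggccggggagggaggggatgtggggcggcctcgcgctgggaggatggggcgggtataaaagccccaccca
S100a11: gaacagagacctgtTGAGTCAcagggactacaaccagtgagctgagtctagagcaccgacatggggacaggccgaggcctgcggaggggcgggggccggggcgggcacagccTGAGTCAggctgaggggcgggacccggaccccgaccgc
Plaur: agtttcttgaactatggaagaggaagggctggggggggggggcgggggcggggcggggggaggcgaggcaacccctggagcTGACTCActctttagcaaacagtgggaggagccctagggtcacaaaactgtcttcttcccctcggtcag
Mmp3: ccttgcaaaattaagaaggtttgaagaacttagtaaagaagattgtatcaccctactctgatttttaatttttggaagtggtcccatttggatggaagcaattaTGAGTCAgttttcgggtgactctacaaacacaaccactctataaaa
Adamts1: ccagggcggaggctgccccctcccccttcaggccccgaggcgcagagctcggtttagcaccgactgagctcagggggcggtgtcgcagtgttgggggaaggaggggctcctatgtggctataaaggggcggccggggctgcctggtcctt
Tgfbi: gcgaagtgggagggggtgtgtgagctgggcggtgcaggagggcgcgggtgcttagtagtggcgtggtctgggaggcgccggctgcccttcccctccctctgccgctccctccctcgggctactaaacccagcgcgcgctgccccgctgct
The first base of the match lay at -95 in Anxa2, -69 in Plaur and -46 in Mmp3, counted back from the start, and S100a11 held 2 matches, at -136 and -38.

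The group named membrane-associated wound proteins had the largest share of genes that rose, 5 of 7 in the mean of both stroke changes and 4 of 7 in C57BL/6 mice. Its median was 0.43 in C57BL/6 mice and 0.28 under the knockout label. The name does not describe every member, since the group includes the actin-bundling Tagln2 and the glycan-binding Lgals1. In the arrays labelled TNF knockout 0 of 7 passed the threshold. Anxa1 encodes annexin A1, a phospholipid-binding protein that limits leukocyte entry and takes part in membrane repair. Its 4 values were 5.43, 5.28, 5.67 and 5.65 in naive C57BL/6 mice and 6.01, 6.12, 6.52 and 6.79 after stroke. The knockout-labelled arrays read 5.90, 6.04, 6.14 and 6.04 when naive and 6.32, 6.13, 6.64 and 6.14 after stroke. All C57BL/6 stroke arrays lay above all naive ones, whereas under the knockout label the naive arrays already stood above every naive C57BL/6 array and a pair of stroke arrays reached no higher than the highest naive one. Anxa1 rose by 0.85 ± 0.15 (SE), 1.81-fold, in C57BL/6 mice (limma, adjusted p = 0.0046) and differed by 0.28 ± 0.15 under the knockout label (adjusted p = 0.65).

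Anxa2 encodes annexin A2, the surface receptor for plasminogen and its tissue-type activator. It read 5.44, 5.64, 5.85 and 5.65 in naive and 6.07, 6.24, 6.49 and 6.54 in stroke C57BL/6 arrays. With the knockout label it read 5.89, 5.91, 6.10 and 5.86 when naive and 6.16, 6.30, 6.38 and 6.41 after stroke. Stroke and naive arrays did not overlap in either genotype, which held for 3 of the 34 genes (Anxa2, Tgfbi and Adamts1) and, in the same direction, for 0.667% of all genes. The rise was 0.69 ± 0.11 in C57BL/6 mice (adjusted p = 0.0017), and the change under the knockout label was 0.37 ± 0.11 (adjusted p = 0.185). In the mean of both it rose by 0.53 ± 0.08 (adjusted p = 0.00028).

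Anxa3 encodes another calcium-dependent phospholipid-binding annexin. Its C57BL/6 values were 6.31, 6.48, 6.57 and 6.50 in naive arrays and 6.70, 7.05, 6.92 and 7.32 after stroke, and those of the knockout label were 6.58, 6.28, 6.59 and 6.68 followed by 6.65, 6.84, 6.92 and 6.83. The C57BL/6 groups were apart, and under the knockout label stroke array 1 lay below naive array 4. It rose by 0.53 ± 0.11 in C57BL/6 mice (adjusted p = 0.021), a call lost in 5 of 16 fits that left out 1 array (without naive array 1 or 2, or stroke array 2, 3 or 4, adjusted p up to 0.072), and by 0.41 ± 0.08 in the mean of both (adjusted p = 0.0074). Tagln2, which encodes transgelin 2, an actin-bundling protein, read 5.65, 5.68, 6.10 and 5.72 in naive and 6.08, 6.20, 6.28 and 6.33 in stroke C57BL/6 arrays. Its knockout-labelled values were 6.05, 5.92, 6.01 and 5.93 when naive and 6.16, 6.23, 5.99 and 6.21 after stroke. Naive C57BL/6 array 3 stood inside the stroke range, as stroke array 3 stood inside the naive range under the knockout label. Tagln2 rose by 0.43 ± 0.10 in C57BL/6 mice (adjusted p = 0.025), lost in 6 of the 16 fits (without naive array 1, 2 or 4, or stroke array 2, 3 or 4, adjusted p up to 0.0855), and by 0.30 ± 0.07 in the mean of both (adjusted p = 0.017).

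S100a11, a small calcium-binding partner of annexin A1, read 7.04, 7.00, 7.28 and 6.96 in naive and 7.19, 7.25, 7.70 and 7.57 in stroke C57BL/6 arrays. Under the knockout label it read 7.03, 7.03, 7.17 and 6.98 when naive and 7.57, 7.38, 7.45 and 7.45 after stroke. Only the groups under the knockout label were free of overlap. The changes were 0.36 ± 0.10 (adjusted p = 0.090) and 0.41 ± 0.10 (adjusted p = 0.10), and the mean of both rose by 0.38 ± 0.07 (adjusted p = 0.0055). The second probe set of S100a11 differed by 0.40 and 0.43 in the same comparisons. S100a6, another calcium sensor that binds annexins, had stroke differences of 0.43 ± 0.12 in C57BL/6 arrays (adjusted p = 0.079) and 0.17 ± 0.12 in knockout-labelled ones (adjusted p = 0.79). Lgals1, which encodes the glycan-binding galectin 1, differed by 0.06 ± 0.14 and 0.13 ± 0.14, with adjusted p of 0.87 and 0.90.

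**Figure D2:**
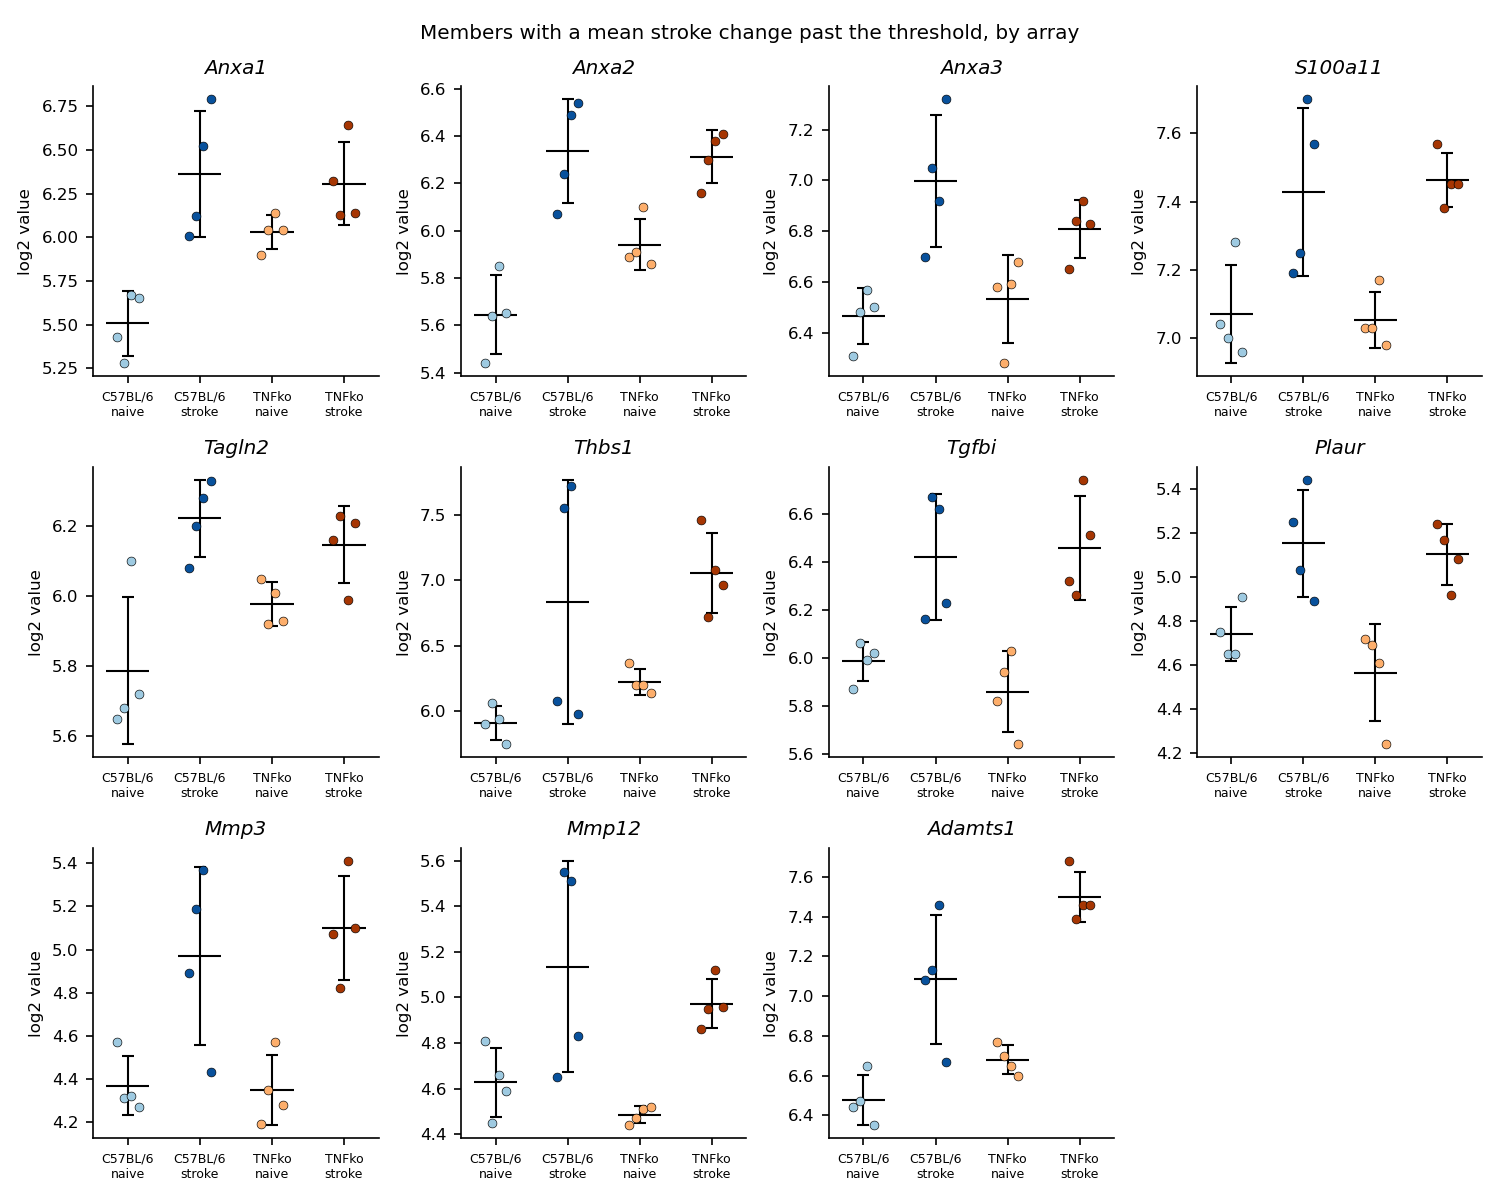
Log2 values of the 11 genes that rose in the mean of both stroke changes, 1 point per array with the group mean (long line) and SD (bars), for C57BL/6 mice and for arrays labelled TNF knockout (TNFko), naive and after stroke. Vertical axes differ between panels, and Thbs1, Tgfbi and Mmp12 show 2 high and 2 low C57BL/6 stroke arrays.

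Of the provisional matrix genes, Thbs1 and Tgfbi rose in the mean of both stroke changes, and the other 4 of the 6 did not pass the threshold in any comparison. Thbs1 encodes thrombospondin 1, an adhesive glycoprotein released by platelets and made by macrophages, astrocytes and vessel cells. It read 5.90, 6.06, 5.94 and 5.75 in naive C57BL/6 arrays and 6.08, 7.55, 7.72 and 5.98 after stroke. The knockout-labelled arrays read 6.37, 6.20, 6.20 and 6.14 when naive and 7.46, 6.72, 7.08 and 6.96 after stroke. In C57BL/6 mice arrays 2 and 3 were far above naive levels while arrays 1 and 4 were at or just above them. The group means were 5.91 ± 0.13 (SD, n = 4) and 6.83 ± 0.93. Under the knockout label all stroke arrays exceeded all naive ones, with means of 6.23 ± 0.10 and 7.05 ± 0.31. The mean of both rose by 0.87 ± 0.20, 1.83-fold (adjusted p = 0.019), the largest change of the 34 genes in that comparison, although neither genotype alone passed (0.92 ± 0.28, adjusted p = 0.11, and 0.83 ± 0.28, adjusted p = 0.33). Leaving out 1 array at a time moved the mean of both between 0.73 and 1.02, past the threshold each time.

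Tgfbi, which encodes a collagen-binding matrix protein induced by TGF-beta, read 5.87, 6.06, 5.99 and 6.02 in naive and 6.16, 6.67, 6.62 and 6.23 in stroke C57BL/6 arrays. The knockout-labelled arrays read 5.82, 5.94, 6.03 and 5.64 when naive and 6.32, 6.26, 6.74 and 6.51 after stroke. No stroke array overlapped a naive array in either genotype. The change was 0.43 ± 0.12 in C57BL/6 mice (adjusted p = 0.079) and a rise of 0.60 ± 0.12 under the knockout label (adjusted p = 0.023), with 0.52 ± 0.09 in the mean of both (adjusted p = 0.0017). The call under the knockout label was lost in 5 of 16 fits, without naive array 1, 2 or 4 or stroke array 3 or 4, with adjusted p up to 0.11.

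Fn1 encodes fibronectin, Vcan the hyaluronan-binding proteoglycan versican, Tnc the anti-adhesive glycoprotein tenascin C, and Sparc a collagen-binding protein of glia and vessels. Over the 16 arrays Fn1 read 7.85 to 8.45 and differed after stroke by 0.19 ± 0.12 in C57BL/6 mice and by 0.14 ± 0.12 under the knockout label. The differences of Vcan were 0.18 ± 0.10 and 0.01 ± 0.10, and those of Tnc were -0.02 ± 0.10 and 0.22 ± 0.10. Sparc differed by -0.01 ± 0.11 and -0.03 ± 0.11 (SE of a difference, with a 95% interval of -0.18 to 0.14 in the mean of both). All 8 adjusted p-values were 0.37 or more.

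Among the genes of plasminogen activation the receptor rose under the knockout label and in the mean of both, where the enzymes did not pass the threshold. In C57BL/6 mice neither the receptor nor the enzymes passed. Plaur, which encodes the receptor that holds urokinase on leukocytes and other cells, read 4.75, 4.65, 4.65 and 4.91 in naive and 5.25, 5.03, 5.44 and 4.89 in stroke C57BL/6 arrays. With the knockout label it read 4.72, 4.69, 4.61 and 4.24 when naive and 5.24, 5.17, 4.92 and 5.08 after stroke. In C57BL/6 mice stroke array 4 fell just inside the naive range, and under the knockout label the groups were apart, with naive array 4 the lowest. Plaur rose by 0.54 ± 0.12 under the knockout label (adjusted p = 0.043) and by 0.47 ± 0.09 in the mean of both (adjusted p = 0.00295), against 0.41 ± 0.12 in C57BL/6 mice (adjusted p = 0.090). The call under the knockout label was kept in 4 of 16 fits without 1 array (without naive C57BL/6 array 4 or C57BL/6 stroke array 1, 3 or 4) and lost in the other 12, with adjusted p up to 0.15 without stroke array 1 of that label. The mean of both passed in all 16.

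Plat, which encodes the tissue-type plasminogen activator, read 7.22, 7.32, 7.36 and 7.44 in naive C57BL/6 arrays and 7.53, 7.57, 7.69 and 7.93 after stroke. In the knockout-labelled arrays it read 7.63, 7.49, 7.58 and 7.58 when naive and 7.45, 7.60, 7.54 and 7.76 after stroke. The C57BL/6 groups were apart, every naive array of the knockout label lay above every naive C57BL/6 array, and the stroke arrays of that label surrounded its naive ones. The differences were 0.34 ± 0.09 (adjusted p = 0.062) and 0.02 ± 0.09 (adjusted p = 0.99). In C57BL/6 mice Plat passed under 4 of 9 other settings and in 1 of 16 fits without 1 array. The 4 settings were median centring, dim genes left out, trended variances and a block for the replicate number. Plau, which encodes urokinase, read 5.47 to 5.83 in all naive arrays and 5.66 to 5.99 in all stroke arrays and differed by 0.13 ± 0.09 and 0.17 ± 0.09, with adjusted p of 0.50 and 0.67.

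Of the matrix-degrading proteases Adamts1, Mmp3 and Mmp12 rose in the mean of both stroke changes, 3 of 7. Adamts1, a secreted metalloprotease that cleaves versican and aggrecan, was the only one of the 34 genes past the threshold in each genotype. It read 6.44, 6.47, 6.65 and 6.35 in naive and 7.08, 7.13, 7.46 and 6.67 in stroke C57BL/6 arrays. The knockout-labelled arrays read 6.77, 6.70, 6.65 and 6.60 when naive and 7.68, 7.39, 7.46 and 7.46 after stroke. Groups were apart in both genotypes, although C57BL/6 stroke array 4 (6.67) stood just above naive array 3 (6.65). Adamts1 rose by 0.61 ± 0.12 in C57BL/6 mice (adjusted p = 0.013), by 0.82 ± 0.12 under the knockout label (adjusted p = 0.0010) and by 0.71 ± 0.09, 1.64-fold, in the mean of both (adjusted p = 4.35e-05). Without C57BL/6 stroke array 3 the C57BL/6 change was 0.48 (adjusted p = 0.055), and in a fit of the C57BL/6 arrays alone its adjusted p was 0.080.

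Mmp3 encodes stromelysin 1, which degrades many matrix proteins and activates other metalloproteases. Its values were 4.57, 4.31, 4.32 and 4.27 in naive and 4.89, 5.19, 5.37 and 4.43 in stroke C57BL/6 arrays, and with the knockout label they were 4.19, 4.35, 4.57 and 4.28 when naive and 5.07, 4.82, 5.41 and 5.10 after stroke. In C57BL/6 mice stroke array 4 lay below naive array 1, and under the knockout label the groups were apart. Mmp3 rose by 0.75 ± 0.16 under the knockout label (adjusted p = 0.026) and by 0.68 ± 0.11 in the mean of both (adjusted p = 0.00125), and differed by 0.60 ± 0.16 in C57BL/6 mice (adjusted p = 0.057). The call under the knockout label was lost in 6 of 16 fits, without naive array 1, 2 or 4 or stroke array 1, 3 or 4, with adjusted p up to 0.12.

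Mmp12 encodes macrophage elastase and lies 1 coding gene away from Mmp3. It read 4.81, 4.45, 4.66 and 4.59 in naive and 4.65, 5.55, 5.51 and 4.83 in stroke C57BL/6 arrays. Under the knockout label it read 4.44, 4.47, 4.51 and 4.52 when naive and 4.86, 4.95, 5.12 and 4.96 after stroke. C57BL/6 stroke arrays 2 and 3 were again high and arrays 1 and 4 near naive levels, and the groups of the knockout label were apart. The mean of both rose by 0.50 ± 0.11 (adjusted p = 0.013), with 0.51 ± 0.15 and 0.49 ± 0.15 in the single genotypes (adjusted p = 0.097 and 0.25). Mmp3, Mmp12, Plaur, Mmp8, Mmp9, Lox and Lum belong to the lowest 33.3 percent of genes by mean level. The deposited table holds no detection calls, so which of their readings lay above background is unknown.

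Mmp9, gelatinase B of neutrophils and activated glia, read 4.72 to 5.13 in all naive and 5.07 to 5.58 in all stroke arrays. Its differences were 0.25 ± 0.12 in C57BL/6 mice and 0.31 ± 0.12 under the knockout label, with 0.28 ± 0.08 in the mean of both (adjusted p = 0.084). Mmp8, the neutrophil collagenase, differed by -0.10 ± 0.10 and 0.11 ± 0.10 and read 2.99 to 3.57 over the 16 arrays. Mmp14, a membrane-bound metalloprotease that activates gelatinase A, read 7.03, 7.01, 7.26 and 7.29 in naive and 7.19, 7.46, 7.74 and 7.55 in stroke C57BL/6 arrays, and 7.40, 7.45, 7.48 and 7.29 when naive and 7.26, 7.27, 7.39 and 7.30 after stroke under the knockout label. Its groups overlapped in both genotypes, and its differences were 0.34 ± 0.10 (adjusted p = 0.099) and -0.10 ± 0.10 (adjusted p = 0.89). Adamts4, another protease of brain proteoglycans, differed by 0.10 ± 0.07 and -0.05 ± 0.07.

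No gene of the collagens or of collagen cross-linking passed the threshold in any comparison, 0 of 6. Col1a1 and Col1a2 encode the chains of type I collagen, Col3a1 that of type III collagen, and Col4a1 and Col4a2, which are adjacent genes, the main chains of vascular basement membrane. The differences after stroke in C57BL/6 mice were -0.10 ± 0.09 for Col1a1, -0.18 ± 0.09 for Col1a2, -0.07 ± 0.10 for Col3a1, 0.05 ± 0.07 for Col4a1 and -0.10 ± 0.07 for Col4a2. With the knockout label they were 0.06, 0.03, 0.08, -0.04 and -0.09 in the same order. In the mean of both, the 95% intervals of these 5 genes lay between -0.20 and 0.15, so changes as large as those of the genes that rose were outside them, while smaller changes were within. Lox, the enzyme that starts the cross-linking of collagen, differed by 0.17 ± 0.08 in the mean of both (adjusted p = 0.27).

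**Figure D3:**
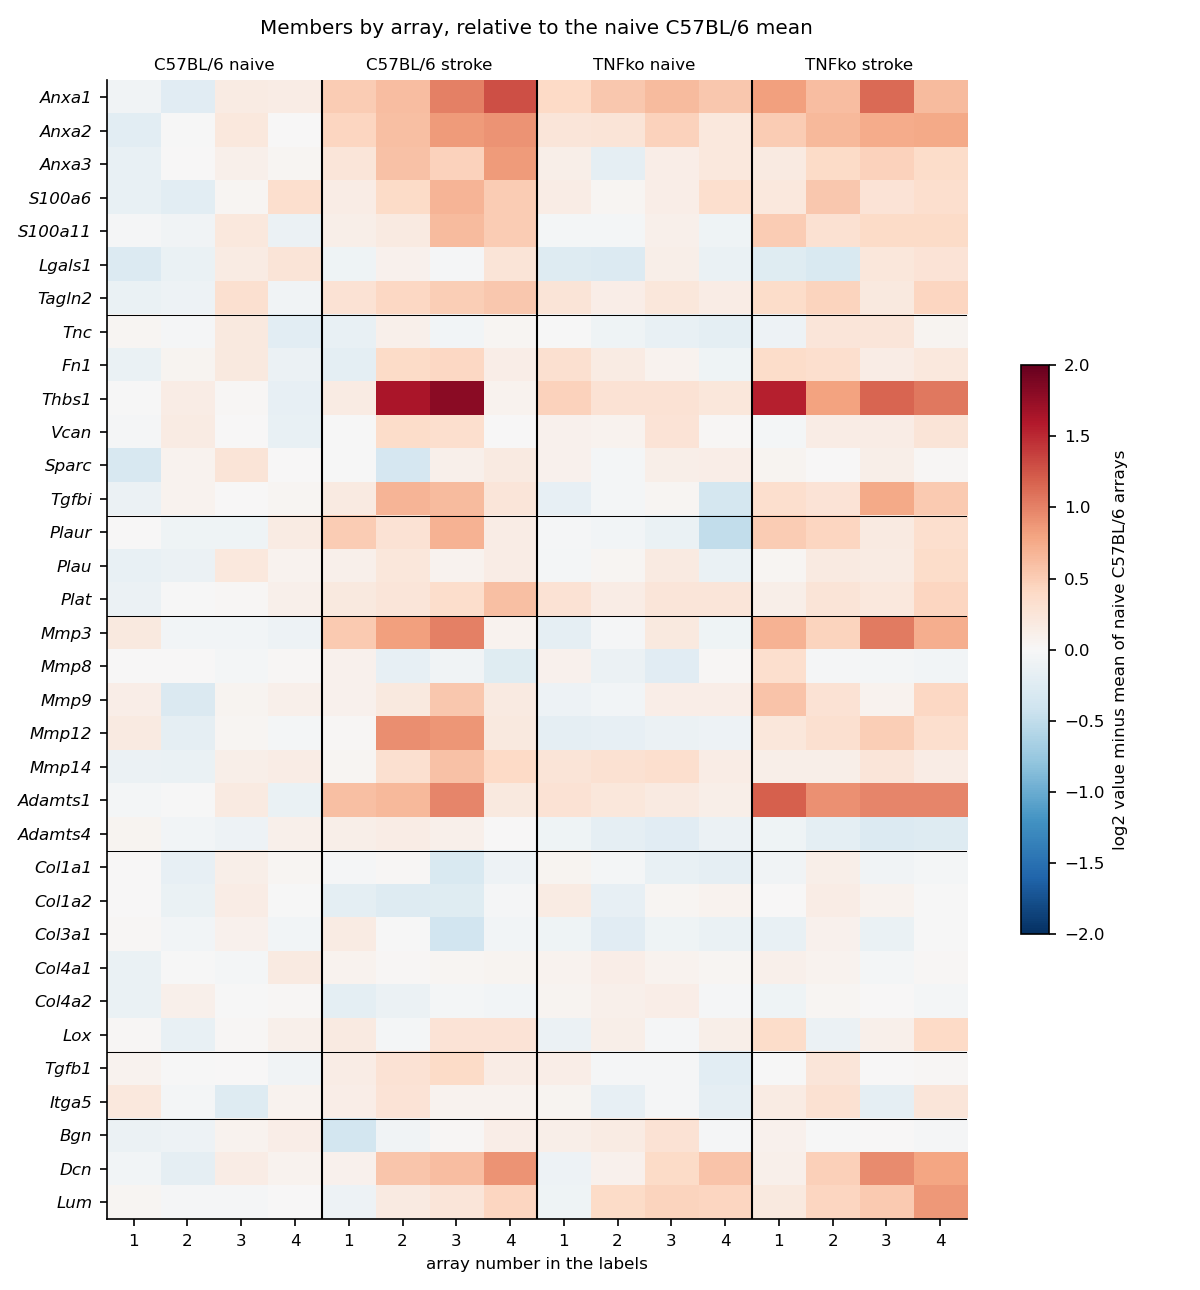
Log2 values of the 34 genes in each of the 16 arrays minus the mean of the naive C57BL/6 arrays, with the arrays of each group numbered as in the labels (TNFko, arrays labelled TNF knockout) and lines between the roles. Red marks higher values, strongest for Thbs1 in C57BL/6 stroke arrays 2 and 3 and in stroke array 1 of the knockout label, and the collagen rows are pale in all groups.

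Tgfb1, the cytokine that drives scar formation, read 6.24 to 6.38 in naive and 6.45 to 6.69 in stroke C57BL/6 arrays, without overlap, and differed by 0.24 ± 0.09 (adjusted p = 0.16). Under the knockout label it differed by 0.10 ± 0.09 (adjusted p = 0.87). Itga5, the fibronectin-binding integrin chain, differed by 0.13 ± 0.11 and 0.21 ± 0.11. Dcn and Lum, adjacent genes that encode the collagen-binding proteoglycans decorin and lumican, differed in the mean of both by 0.44 ± 0.13 (adjusted p = 0.067) and 0.20 ± 0.10 (adjusted p = 0.30). Dcn read 8.07, 7.95, 8.28 and 8.20 in naive and 8.21, 8.68, 8.74 and 9.03 in stroke C57BL/6 arrays, with stroke array 1 inside the naive range. Bgn, which encodes biglycan, differed by -0.10 ± 0.07 in the mean of both (adjusted p = 0.55). Counting groups without overlap, 7 of the 34 genes were higher in C57BL/6 stroke arrays (Anxa1, Anxa2, Anxa3, Tgfbi, Plat, Adamts1 and Tgfb1; 5.03% of all genes) and 0 lower (3.23%). Among knockout-labelled arrays 8 were higher (Anxa2, S100a11, Thbs1, Tgfbi, Plaur, Mmp3, Mmp12 and Adamts1; 2.8%) and 0 lower (3.07%).

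The C57BL/6 stroke arrays differed among themselves. Array 1 was the lowest or tied lowest of the 4 in 20 of the 34 genes, and its weight estimated by limma was 0.509. Array 3 and array 4 were each the highest or tied highest in 12 genes, with Lox tied between them, array 3 among others in Thbs1, Plaur, Mmp3 and Adamts1, and array 4 in Anxa1, Anxa2, Anxa3, Tagln2, Plat, Dcn and Lum. The count of genes that rose in C57BL/6 mice was 13 without stroke array 1, 2 without stroke array 3, and 3 without stroke array 2, naive array 1 or naive array 2. Anxa1 and Anxa2 passed in all 16 fits. In the arrays labelled TNF knockout the count was 1 without naive array 1, 2 or 4 or stroke array 3 or 4, 2 without stroke array 1, and Adamts1 passed in all 16. The 11 genes of the mean of both passed in all 16.

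The knockout-labelled samples carry 2 name prefixes that the labels do not explain. Stroke array 1 and naive arrays 1, 2 and 3 have KL76, and naive array 4 with the other stroke arrays has KL82. With the prefix as a term in the limma fit, Plaur (0.69) and Adamts1 (0.91) passed under that label, and Tgfbi (0.63, adjusted p = 0.080) and Mmp3 (0.77, adjusted p = 0.10) did not. Computed separately in KL76 and in KL82, stroke minus naive was 0.97 and 0.84 for Adamts1, 0.57 and 0.82 for Plaur, 0.70 and 0.83 for Mmp3, 0.39 and 0.86 for Tgfbi and 1.20 and 0.78 for Thbs1. All C57BL/6 arrays carry the prefix KL42, so prefix and genotype cannot be told apart.

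Between the genotypes 0 of the 34 genes passed the threshold, against 0.386% of all genes in naive mice and 0.436% after stroke. At an unadjusted p under 0.05 there were 5 and 4 of the 34, against 16.6% and 11.3% of all genes. In naive mice the groups did not overlap for Anxa1, Anxa2, Thbs1 and Plat, higher under the knockout label (4.5% of all genes), and for Col3a1, lower (4.15%). The largest of these differences was that of Anxa1, 0.52 ± 0.15 (adjusted p = 0.10), with naive means of 5.51 ± 0.19 (SD, n = 4) in C57BL/6 mice and 6.03 ± 0.10 under the knockout label. After stroke Col1a2 was higher without overlap (0.23 ± 0.09, adjusted p = 0.29; 3.04% of all genes) and Adamts4 lower (-0.30 ± 0.07, adjusted p = 0.087; 2.76%). Adamts4 read 7.49, 7.52, 7.48 and 7.38 in C57BL/6 stroke arrays and 7.28, 7.18, 7.10 and 7.12 in those of the knockout label. It passed when the lowest 33.3 percent of genes was left out. Adamts1 after stroke differed by 0.41 ± 0.12 (adjusted p = 0.17), and passed (0.54) without C57BL/6 stroke array 3.

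The difference between the 2 stroke changes was tested directly, and 0 of the 34 genes and 0 of 19938 genes passed (limma). At an unadjusted p under 0.05 there were 4 of the 34, against 7.42% of all genes, each with the smaller change under the knockout label. The difference was -0.57 ± 0.21 for Anxa1 (95% interval -1.01 to -0.14, adjusted p = 0.58), -0.44 ± 0.14 for Mmp14 (-0.73 to -0.14, adjusted p = 0.54), -0.33 ± 0.13 for Plat (-0.60 to -0.06, adjusted p = 0.60) and -0.32 ± 0.15 for Anxa2 (-0.63 to -0.002, adjusted p = 0.67). These 4 were named after their values were seen, and both stroke changes enter each difference with its naive group. For the 11 genes that rose in the mean of both, the intervals of the difference ran at their widest from -0.93 to 0.74 in Thbs1, so an equal response is not shown either.

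Other genes of the same pathways were read from 8 lists with 168 measured entries. The shares to set beside these lists and the marker lists below are those of all genes. In the mean of both stroke changes 1.78% of all genes rose and 1.03% fell. In the mean of both stroke changes 1 of 18 genes of plasminogen activation and coagulation rose, F13a1, which encodes the fibrin-stabilising factor XIII chain made by macrophages and megakaryocytes (0.52 ± 0.08, adjusted p = 0.00067). In C57BL/6 mice it read 5.10, 4.82, 5.09 and 5.31 when naive and 5.61, 5.68, 5.87 and 5.84 after stroke, without overlap. Of 28 other metalloproteases and inhibitors 3 rose, Timp1, Adamts9 (0.23 ± 0.05) and Adam8 (0.33). Timp1 encodes a tissue inhibitor of metalloproteases. It read 5.52, 4.74, 5.39 and 4.86 in naive and 5.63, 6.01, 6.81 and 5.58 in stroke C57BL/6 arrays, and 5.15, 4.92, 5.04 and 5.14 followed by 5.76, 6.27, 6.51 and 6.74 under the knockout label. Both genotypes were free of overlap, and Timp1 rose by 1.07 ± 0.16, 2.10-fold, in the mean of both (adjusted p = 0.00068).

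Of 23 integrins and other matrix receptors Cd44, the hyaluronan receptor, rose by 0.69 ± 0.09 in the mean of both (adjusted p = 0.00013), Sdc4, which encodes the heparan sulphate proteoglycan syndecan 4, rose by 0.49 ± 0.08 (adjusted p = 0.00096), and Itga9 fell by 0.26. Of 17 other annexins, S100 proteins and galectins 2 rose, Lgals9 (0.32) and Anxa7 (0.21). Of 16 entries of collagen processing 1 rose, Tgm2 (0.52 ± 0.09), whose product cross-links matrix proteins. The entry for Loxl2 was read from Loxl3, which therefore counts more than once in this list. Of 24 other collagens and basement membrane genes 0 rose and 1 fell, Lama2, a laminin chain, by 0.28. Of 23 genes of brain matrix and other small proteoglycans 0 rose and 2 fell, Cspg5 by 0.23 and Fmod by 0.38. Of 19 genes of TGF-beta signalling 0 passed in either direction. The medians of these 8 lists in the mean of both ran from -0.07 to 0.10, against 0.17 for the 34 genes and -0.0025 for all genes.

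Lists of cell type markers that leave out the 34 genes were read in the same arrays, and their part in the results was not tested. Of 13 reactive astrocyte markers 8 rose and 0 fell in the mean of both (median 0.69), Timp1 and Cd44 of the pathway lists among them. Their mean log2 value went from 5.68 to 5.81 in naive to 6.20 to 6.63 in stroke C57BL/6 arrays, and from 5.70 to 5.78 to 6.39 to 6.47 under the knockout label. Of 15 monocyte and macrophage markers 6 rose (median 0.28), with mean values of 4.64 to 4.68 and then 4.95 to 5.38 in C57BL/6 mice, and 4.58 to 4.66 and then 4.97 to 5.11 under the knockout label. Of 14 neutrophil markers 4 rose, Lcn2, Il1r2, Retnlg and Cxcr2 (median 0.10). Among the C57BL/6 stroke arrays both the macrophage and the astrocyte lists were highest in array 3 and lowest in array 1. Both lists were higher in arrays 2 and 3 than in arrays 1 and 4, as were Thbs1, Tgfbi, Mmp3, Mmp12 and Adamts1. Anxa1, Anxa2, Anxa3, Tagln2, S100a11 and Plaur, the other genes that rose, did not have this split. Of these, Anxa1, Anxa2, Anxa3 and Tagln2 were lowest in array 1 and highest in array 4. The endothelial, microglia and meningeal fibroblast lists were also lowest in array 1 and highest in array 4.

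Of 14 meningeal fibroblast markers 1 rose, Aldh1a2, and 2 fell, Igf2 and Fmod (median -0.10). Their mean value was 7.04 to 7.23 in naive and 6.99 to 7.26 in stroke C57BL/6 arrays, and 7.25 to 7.40 and then 7.22 to 7.26 under the knockout label. Of 12 pericyte and smooth muscle markers 1 fell, Rgs5 (median -0.12), and of 13 endothelial markers 1 rose, Slc2a1 (median -0.05). The endothelial median joins changes of opposite sign. It was 0.08 in C57BL/6 mice (10 of 13 above 0) and -0.19 under the knockout label (4 of 13 above 0). For the difference of the stroke changes it was -0.25, with 0 of 13 above 0 and 0 past the threshold. Of 5 platelet markers 0 passed (median -0.06), and of 3 red cell markers 0 passed (median -0.09). After stroke 0 of 13 endothelial markers had a higher mean under the knockout label than in C57BL/6 mice (median difference -0.23), and 1, Cldn5, was lower past the threshold. Endothelium was not alone in this, with 0 of 7 oligodendrocyte markers (median -0.38) and 1 of 11 microglia markers (median -0.21) higher. Of 14 meningeal fibroblast markers 13 were higher (median 0.115), and the median over all genes was -0.0075. Of 11 microglia markers Fcrls rose and Siglech fell (median -0.03), and of 10 neuronal markers 1 fell, Tubb3 (median -0.03). By genotype the microglia median was 0.125 in C57BL/6 mice and -0.15 under the knockout label. The median of their difference was -0.33, with 1 of 11 above 0 and 0 past the threshold. Of 9 choroid plexus markers 0 passed (median -0.02), as did 0 of 7 oligodendrocyte markers (median -0.01). In C57BL/6 mice these 2 medians were 0.07 and 0.03, and under the knockout label they were -0.10 and -0.115. In the comparison of genotypes after stroke Cd68 of the macrophage list (-0.38) and Cnp of the oligodendrocyte list (-0.46) were also lower under the knockout label.

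**Figure D4:**
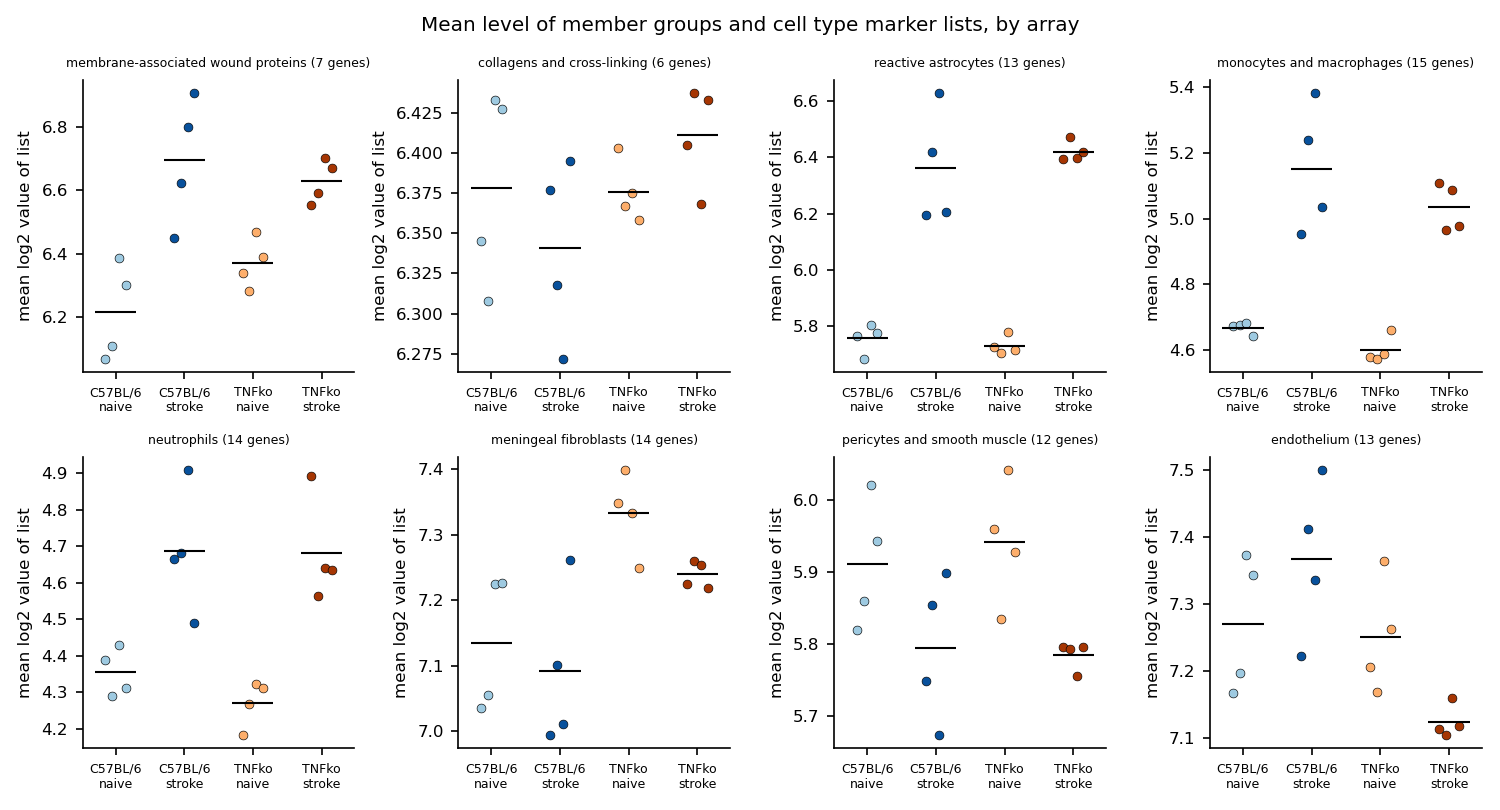
Mean log2 value per array (1 point each, line at the group mean) of the membrane-associated wound proteins, of the collagen genes and of 6 cell type marker lists that contain none of the 34 genes, in C57BL/6 mice and in arrays labelled TNF knockout (TNFko). Vertical axes differ between panels: reactive astrocyte markers went from at most 5.81 to at least 6.20, while the collagen panel spans 6.27 to 6.44 in all groups.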

How the data were processed

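Per the labels' protocols, frozen brains were extracted with Trizol, and the RNA carried a biotin label. The authors deposited 1 log2 value per probe set and array, on a common scale between arrays. Their processing notes list RMA, GCRMA, GCOS and Partek, with no word on which of these made the table. No further normalization was applied. Of 28944 probe sets, 21789 carried 1 gene symbol in GEO's platform annotation and gave 19938 genes, each read from its probe set with the highest mean. Dim probe sets were kept, and the number of arrays limits the precision.

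All 16 arrays entered 1 limma 3.58.1 model (R 4.3.3) that estimated the mean of each of the 4 groups with lmFit and moderated the variances with eBayes. It had 12 residual degrees of freedom and a prior worth 7.52. All tests were two-sided, and p-values were adjusted by Benjamini and Hochberg over the 19938 genes, separately for each contrast, and called at 0.05. The contrasts were stroke against naive in each genotype, their mean, their difference, and knockout label against C57BL/6 within the naive and within the stroke arrays. The 95% intervals are per gene and not adjusted for the number of genes. The scripts were tested on simulated data. Tables were made in Python 3.11.15 with numpy 2.4.6 and pandas 2.3.3, and figures with matplotlib 3.10.9.

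Values in every array are given for each of the 34 genes past the threshold in any contrast. Of the pathway and marker lists (168 of 175 and 126 of 136 entries matched) up to 4 genes with the smallest p may be named, with Tnf, Tnfrsf1a and Timp1. Genes of a list that were not matched are not analysed here. The entry for Loxl2 was matched to Loxl3 through a synonym, so Loxl2 itself was not read. The 34 genes and all lists were chosen with earlier results of these data known. The alternatives were to apply quantile normalization or median centring, to drop the lowest 33.3 percent of genes by mean, to average all probe sets of a gene, and to use trended variances, array weights, a block for the replicate number, a term for the prefix of the sample names, a fit of only the groups compared, and leaving out each array.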

Additional observations from a re-analysis of the deposited data

Results flagged for a closer look

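In 5 of 136 groups of 4 arrays, 1 array of 1 gene stood apart from the other 3 by more than Dixon's 95% limit for a group of this size. Chance gives this in about 1 in 20 groups, or 6.8 of 136. Tagln2 in naive C57BL/6 array 3 was 6.10, against 5.65 to 5.72 in the other arrays of its group. Mmp3 in naive C57BL/6 array 1 was 4.57, against 4.27 to 4.32. Mmp8 in stroke array 1 of the knockout label was 3.57, against 3.18 to 3.22. Tgfb1 in stroke array 2 of that label was 6.54, against 6.29 to 6.33. Lum was low, at 4.21, in naive array 1 of that label, against 4.67 to 4.74. The 5 readings lie in 5 different arrays.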

How the results depend on the processing

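The 11 genes that rose in the mean of both stroke changes passed in every fit without 1 array, where 11 to 13 genes passed, and under every other setting in which they were tested. With the lowest 33.3 percent of genes by mean left out, Plaur, Mmp3, Mmp8, Mmp9, Mmp12, Lox and Lum were not tested. The counts in single genotypes depended more on the settings. In C57BL/6 mice 5 rose, and the count was 9 with these dim genes left out and 2 (Anxa1 and Anxa2) with only the groups compared. Under the knockout label 4 rose, and the count was 2 with quantile normalization, 2 with dim genes left out and 2 with the prefix as a term, but 6 with array weights (Anxa2 and S100a11 gained) and 6 with only the groups compared (S100a11, Thbs1 and Mmp12 gained, Plaur lost). With only the groups compared, the knockout label thus had more calls than C57BL/6 mice, 6 against 2. Leaving out 1 array gave 2 to 13 genes in C57BL/6 mice and 1 to 4 under the knockout label. Between genotypes 0 passed in naive mice in all 16 fits and 0 to 1 after stroke, where Adamts4 also passed as 1 gene with dim genes left out. For the difference of the stroke changes the range was 0 to 0. No value of a followed gene changed sign past the threshold. Over 38 such results, 829 values stayed on their side of the threshold, 45 lost the call and 51 gained it.

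With the replicate number as a replicate block, 12 genes rose in C57BL/6 mice, with S100a6, S100a11, Tgfbi, Plat, Mmp3, Mmp14 and Dcn gained. Under the knockout label 4 rose, with Anxa2 gained and Plaur lost (limma, adjusted p = 0.052). In the mean of both 13 rose, with S100a6 (0.30) and Dcn (0.44) gained. S100a6 and Dcn also passed there with dim genes left out, trended variances or array weights, and each in 3 of 16 fits without 1 array. Neither passed with quantile normalization, median centring, averaged probe sets or the prefix as a term. The labels do not say that a number marks shared animals or days. Deviations of arrays with the same number correlated at -0.07 to 0.34 (median 0.09, 10 of 24 pairs over 0.1), against a median of -0.04 and 9 of 72 pairs over 0.1 between other numbers. Same-number pairs were thus over 0.1 more often than others, and whether the numbers mark shared handling is not settled. The block was not used for the values reported. The C57BL/6 count depends on this choice, 5 without the block and 12 with it. Low signal limits what can be read from Plaur, Mmp3, Mmp8, Mmp9, Mmp12, Lox and Lum, whose signal over background is not known. Plaur, Mmp3 and Mmp12 are among the genes that rose in the mean of both.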
